A study of Mus musculus with 6 samples.

Results

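The 6 genes described here are 4 adult globin genes (Hbb-bs, Hbb-bt, Hba-a1 and Hba-a2), the erythroid haem enzyme gene Alas2 and the red cell anion exchanger gene Slc4a1. They were found by matching the Ensembl identifiers of 35275 gene rows to symbols, and all 6 had a row. The study sequenced RNA of whole lungs from Balb/c mice 7 days after 250000 4T1 cells, a mouse mammary carcinoma line that settles in the lung, were injected into the tail vein. In 3 libraries the injected cells were unmodified (4T1.WT, called WT), and in the other 3 they lacked PD-L1 (4T1.PD-L1 KO, called KO). KO thus names the genotype of the injected cells, and the labels record no edit in the mice that received them. The sources used here give neither the age of the mice nor how the KO cells were made or cloned. All lungs were perfused with 20 mL of PBS before homogenisation, a step that washes blood out of the vessels, and no lung without tumour cells is among the samples.

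Adult haemoglobin is made of alpha chains, from Hba-a1 and Hba-a2, and beta chains, from Hbb-bs and Hbb-bt. Red cell precursors switch these genes on in the bone marrow together with Alas2, which starts haem synthesis, and Slc4a1, whose product (band 3) exchanges chloride for bicarbonate in the red cell membrane. Mouse red cells lose their nucleus, and young ones (reticulocytes) still carry globin RNA in the circulation, so these genes are widely read as a sign of blood in a tissue sample. Globin RNA is not limited to red cells: alpha globin is also known from endothelial cells of small arteries, and globins have been described in alveolar epithelial cells. In RNA of a whole organ, fewer cells of a type and less RNA per cell cannot be told apart.

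The alpha genes and the beta genes are near-identical within each pair, which bears on every count below. In the GENCODE M21 transcripts the coding sequences of Hba-a1 and Hba-a2 (426 bases, stop codon left out) differ at 1 base, C381T, and those of Hbb-bs and Hbb-bt (441 bases) differ at 1 base, C417T. Positions are counted from 1 at the first base of the start codon, and the base of the first-named gene comes first. The stretches around these bases are shown because, against this reference, a read wholly within the coding part can be assigned within a pair only if it covers them. The capital marks the differing base.
Hba-a1: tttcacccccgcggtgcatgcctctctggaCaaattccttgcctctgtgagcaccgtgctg
Hba-a2: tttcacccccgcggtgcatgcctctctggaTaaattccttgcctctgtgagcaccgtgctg
Hbb-bs: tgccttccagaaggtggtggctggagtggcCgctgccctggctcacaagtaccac
Hbb-bt: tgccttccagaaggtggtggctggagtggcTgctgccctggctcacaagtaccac
After the coding part the beta transcripts part ways, with 96 of 137 aligned positions identical. The alpha transcripts share all 77 bases that Hba-a1 has there, and Hba-a2 runs on for 16 more. The sources used here do not say how reads that fit several places were counted, so the split of counts within each pair is uncertain. If such reads were left out, the totals of each pair would be too low as well. The globin sums, shares, ranks and ratios below carry this limit, and its size was not tested. Between the pairs, by contrast, the coding sequences of Hba-a1 and Hbb-bs were 55.1% identical, with no shared run longer than 14 bases. Balb/c mice carry another haplotype of the beta globin locus than the C57BL/6 reference, which has Hbb-bs and Hbb-bt, and this applies to both groups alike. Counts of Hbb-bs and Hbb-bt, and the shares and ratios that use them, are thus counts of Balb/c reads placed on these reference genes. The beta base C417T describes the reference and may not separate the beta genes of these mice.

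Hbb-bs (ENSMUSG00000052305; GRCm38 chromosome 7, 103826534 to 103828096, minus strand) and Hbb-bt (ENSMUSG00000073940; 103812524 to 103813996) lie in the beta globin cluster, and no other annotated gene overlaps them. Hba-a1 (ENSMUSG00000069919; chromosome 11, 32283511 to 32284465, plus strand) and Hba-a2 (ENSMUSG00000069917; 32296489 to 32297298) lie in the alpha cluster. Alas2 (ENSMUSG00000025270; chromosome X, 150547375 to 150570638) shares 311 of its 2403 exonic bases with Apex2 on the opposite strand. Since the strand setting of the counting is not given, reads there cannot be told apart from Apex2, a DNA repair gene with 69 to 176 counts per library. The microRNA gene Mir3620 also lies within Alas2. Slc4a1 (ENSMUSG00000006574; chromosome 11, 102348824 to 102366203) is free of other genes.

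The sequence before the start of 3 of these genes is shown because Hbb-bs, Hba-a2 and Alas2 sit on 3 chromosomes and were all highest in the same library (below). The bases come from RefSeq's promoter table (GRCm38.p6), leave out any base inside an annotated exon, and carry matches to the motifs searched in capitals.
Hbb-bs, chr7:103827929-103828011, minus strand: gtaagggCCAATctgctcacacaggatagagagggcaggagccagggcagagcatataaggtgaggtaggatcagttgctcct
Hba-a2, chr11:32296339-32296488, plus strand: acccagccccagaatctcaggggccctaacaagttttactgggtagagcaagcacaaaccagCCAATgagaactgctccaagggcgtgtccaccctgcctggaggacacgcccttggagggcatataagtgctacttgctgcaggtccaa
Alas2, chrX:150547225-150547374, plus strand: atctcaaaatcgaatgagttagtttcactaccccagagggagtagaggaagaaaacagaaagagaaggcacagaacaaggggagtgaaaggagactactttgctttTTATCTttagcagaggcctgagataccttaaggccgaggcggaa
Over the 250 bases before the start, on both strands, a GATA motif (AGATAA or TGATAA, bound by the GATA factors of blood cells) was found in 4 of the 5 member promoters in the table and in 16.6% of 32851 promoters. CCAAT was found in 4 of the 5 and in 33.8% of all promoters. A CACCC box (CACACCC or CCCACCC), the kind of site bound by the erythroid factor KLF1, was found in 2 of the 5, Hbb-bs and Alas2, and in 21.3% of all. TATAAA was found in 2 of the 5, Hbb-bt and Alas2, and in 12.4% of all. The GATA motifs of Hbb-bs and Hba-a2, the CACCC boxes and the TATAAA of Alas2 lie outside the stretches shown. The CACCC boxes of Alas2 fall in bases left out as annotated exon, although they lie before the start in the promoter table. A match describes letters, not binding.

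Counts assigned to the adult globin genes made up a very small share of these lungs' libraries. Reads that fit both genes of a pair may be missing from them (above). The 4 adult globin genes together took 2672, 2686 and 2824 of all counts in WT libraries 1, 2 and 3, and 3031, 2316 and 5291 in KO libraries 1, 2 and 3. As shares of all counts these are 0.0182%, 0.0159% and 0.0184% in WT and 0.0197%, 0.0152% and 0.0321% in KO lungs. The exact 95% binomial interval for the KO library 3 value ran from 0.0313% to 0.0330%, apart from those of the other 5 libraries, which lay between 0.0146% and 0.0204%. Intervals cover counting error only. Libraries held 14711459 to 16932114 counts in all, so 3 counts, the limit that a count of 0 allows, correspond to 0.177 to 0.204 CPM (a gene's count scaled to a common library size). KO library 3 was not the deepest: WT library 2 held more counts.

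Hbb-bs, the main source of beta chain counts, stood at 103, 85.8 and 105 CPM in WT lungs 1 to 3 and at 121, 96.5 and 198 CPM in KO lungs 1 to 3. KO library 3 was far above the rest, and the other KO libraries lay close to or within the WT range. The mean was 98.1 ± 10.6 CPM for the WT group and 138 ± 52.8 CPM for the KO group (SD, n = 3 each). The log2 difference of 0.50 ± 0.23 (SE, KO minus WT) did not pass edgeR's quasi-likelihood test (adjusted p = 0.356). Without KO replicate 3 the log2 difference was 0.14, with an adjusted p of 0.786 by edgeR. The call also depended on the filter: with no filter on low counts Hbb-bs passed, at a log2 difference of 0.49 and an adjusted p of 0.00589 by edgeR, with the standard error at 0.13 in place of 0.23.

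Hba-a1, the main source of alpha chain counts, stood at 72.8, 67.2 and 59.5 CPM in WT lungs 1 to 3 and at 59.7, 47.7 and 101 CPM in KO lungs 1 to 3. Here KO library 3 was again the highest while KO library 2 was the lowest of all 6, so the KO values lay on both sides of the WT values. The means were 66.5 ± 6.69 and 69.6 ± 28.2 CPM, and the log2 difference was 0.07 ± 0.23 (edgeR adjusted p = 0.936). Its sign was not stable: the difference was −0.31 without KO replicate 3, −0.009 without WT replicate 3 and −0.004 with the replicate number as a block.

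The partner genes had far fewer counts. Hba-a2 stood at 7.28, 4.22 and 17.6 CPM in WT lungs 1 to 3 and at 13.6, 7.33 and 22.4 CPM in KO lungs 1 to 3. WT library 3 and KO libraries 1 and 3 were the high ones, and the groups overlapped. The log2 difference was 0.58 ± 0.56 (edgeR adjusted p = 0.708). Hbb-bt had 1, 5 and 47 counts in WT and 18, 1 and 16 counts in KO libraries, and the same 3 libraries were high. Its log2 difference of −0.64 ± 1.13 (edgeR adjusted p = 0.856) rested on WT replicate 3, and without that library it was 1.94.

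Alas2 stood at 4.88, 4.22 and 6.69 CPM in WT lungs 1 to 3 and at 5.85, 4.32 and 9.74 CPM in KO lungs 1 to 3. KO library 3 was again the highest, and the lowest values of the 2 groups were nearly equal. The means were 5.26 ± 1.28 and 6.64 ± 2.80 CPM, with a log2 difference of 0.34 ± 0.35 (edgeR adjusted p = 0.72) that was −0.05 without KO replicate 3. Slc4a1 was close to the limit of detection, with 0, 16 and 4 counts in WT and 6, 0 and 6 counts in KO libraries. It did not pass the filter on low counts and was not tested.

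**Figure D1:**
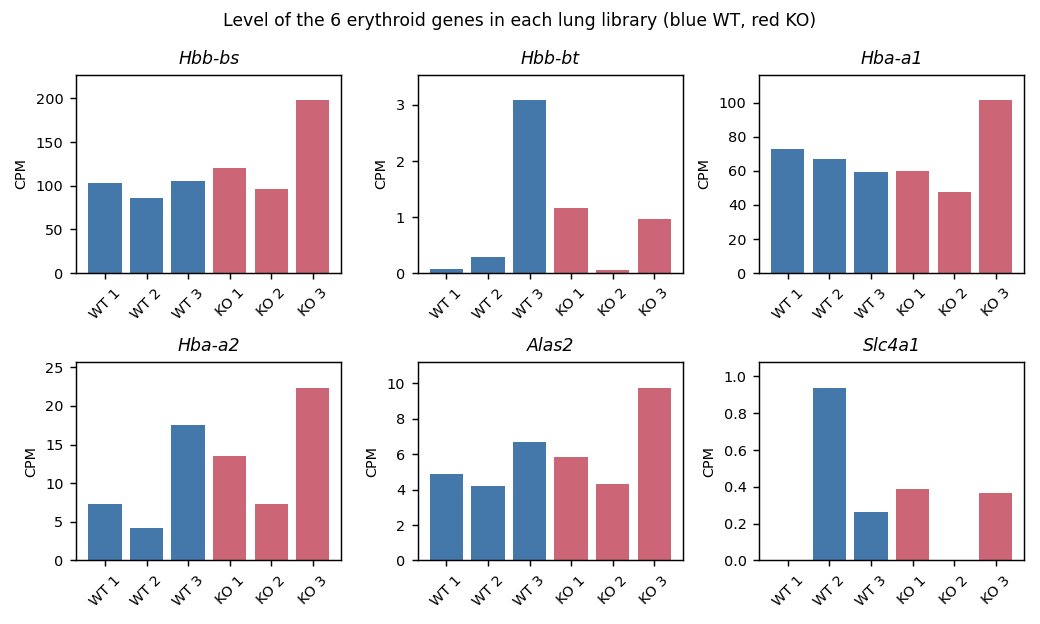
Level in CPM (vertical axis, from 0, with its own scale in each panel) of Hbb-bs, Hbb-bt, Hba-a1, Hba-a2, Alas2 and Slc4a1 in each of 3 WT (blue) and 3 KO (red) lung libraries, 1 bar per library. Hbb-bs, Hba-a1, Hba-a2 and Alas2 are highest in KO library 3, Hbb-bt is highest in WT library 3 at 3.08 CPM, and Slc4a1 is below 1 CPM throughout.

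So 5 of the 6 genes were tested and none passed. Of the 15191 genes tested, 1.45% passed in either direction, 1.12% as higher and 0.336% as lower in KO lungs. In none of the 6 did the KO and WT ranges separate, while they separated in 19.7% of all tested genes. Among the 5, 4 log2 differences were positive and 1 was negative, beside a median of 0.01 over all tested genes. Per length, which allows genes to be compared, the 6-library mean was 153.8 RPKM (CPM per kilobase of exons) for Hbb-bs, 83.8 for Hba-a1, 18.1 for Hba-a2, 2.48 for Alas2, 1.34 for Hbb-bt and 0.067 for Slc4a1. On that scale Hbb-bs ranked 224 among all rows and Hba-a1 ranked 490. In that order Hba-a1 and Hba-a2, and Hba-a2 and Alas2, did not overlap over the 6 libraries, while Hbb-bs overlapped Hba-a1 and Alas2 overlapped Hbb-bt.

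Summed over the 4 genes, adult globin stood at 183.5, 157.6 and 185.1 CPM in WT lungs and at 194.9, 151.6 and 322.2 CPM in KO lungs. The KO lungs held both the lowest and the highest of the 6 values. The means were 175.4 ± 15.5 and 222.9 ± 88.7 CPM (SD, n = 3 per group), a difference of 0.28 in mean log2 CPM (exact permutation test, two-sided, p = 0.5). With 3 libraries against 3 the smallest p this test allows is 0.1. Without KO replicate 3 the difference was −0.03, so WT and KO lungs then held nearly the same globin level.

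The balance of alpha to beta counts separated the groups, unlike the summed level. This ratio is taken within a library and does not depend on depth or scaling. It was 0.774, 0.830 and 0.713 in WT lungs 1 to 3 and 0.602, 0.570 and 0.623 in KO lungs 1 to 3. All 3 KO libraries lay below all 3 WT libraries, and KO library 3, which held the most globin, was not apart from the other KO libraries. The means were 0.772 ± 0.059 and 0.598 ± 0.027, and the mean log2 ratio was lower in KO by a difference of −0.37 (exact permutation test, two-sided, p = 0.1, the smallest this design allows). In all 3 such single values were tested, and with Benjamini-Hochberg adjustment over them the p of this exact test was 0.3, so the difference did not pass.

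As a share of adult globin counts, alpha counts were 43.6%, 45.4% and 41.6% in WT and 37.6%, 36.3% and 38.4% in KO libraries. The lowest WT interval began at 39.78% and the highest KO interval ended at 39.71%, so the intervals of the 2 groups did not overlap. These intervals cover counting error within a library, not variation between lungs, and so do not test the group difference. The share restates the ratio above, which did not pass. Restricted to the major genes, the Hba-a1 to Hbb-bs ratio was 0.704, 0.783 and 0.566 in WT and 0.495, 0.495 and 0.513 in KO libraries, an alternative chosen after seeing the data. Here too the groups did not overlap. Leaving out any 1 library kept the log2 difference of the alpha to beta ratio between −0.42 and −0.31. Alpha and beta transcripts differ in sequence and length, and these ratios compare counts, not molecules.

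Within the alpha pair, Hba-a2 took 9.09%, 5.91% and 22.8% of alpha counts in WT and 18.5%, 13.3% and 18.1% in KO libraries. The exact 95% intervals of WT libraries 1 (7.50% to 10.9%) and 3 (20.4% to 25.3%) were far apart, although both are WT. Within the beta pair, Hbb-bt took 0.066%, 0.341% and 2.85% of beta counts in WT and 0.951%, 0.068% and 0.491% in KO libraries. The 3 libraries with the highest Hba-a2 share (WT 3, KO 1 and KO 3) were also those with the highest Hbb-bt share. The split within each pair therefore varied between libraries of the same group by more than counting error and did not follow the injected cells. Its source was not tested.

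**Figure D2:**
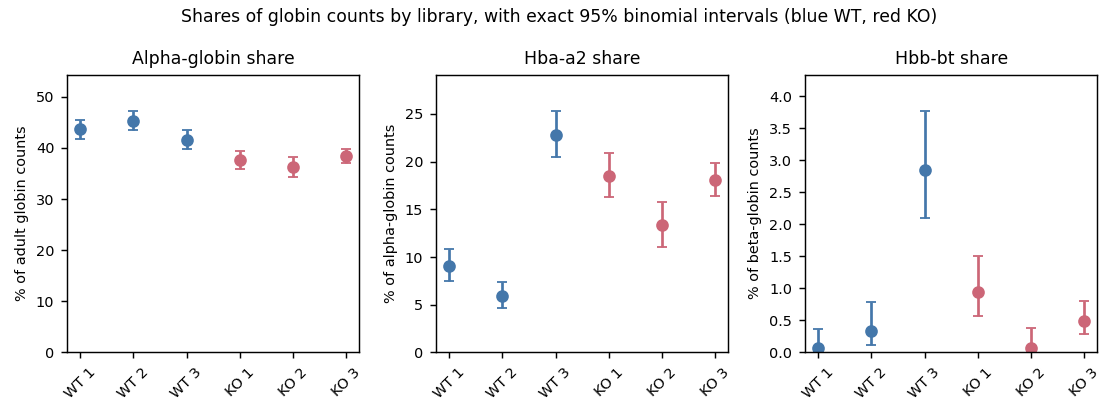
Share in percent (vertical axes, from 0) of alpha genes among adult globin counts, of Hba-a2 among alpha counts and of Hbb-bt among beta counts, per library (blue WT, red KO), with exact 95% binomial intervals as bars. Alpha shares are 41.6% to 45.4% in WT and 36.3% to 38.4% in KO libraries, while the other shares differ most between libraries of the same group, with WT library 3 the highest in each.

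Alas2 followed the globins closely. Its counts were 0.0266, 0.0268 and 0.0361 of the adult globin counts in WT and 0.0300, 0.0285 and 0.0302 in KO libraries. The ratio varied less than either level: the highest library was 1.36 times the lowest, against 2.31 times for Alas2 CPM and 2.13 times for summed globin CPM. For the globin sum this rested on KO library 3, since the rest ran only from 151.6 to 194.9 CPM. The lowest and highest ratios, 0.0266 and 0.0361, were both in WT libraries. The KO values lay inside the WT range (means 0.0298 ± 0.0054 and 0.0296 ± 0.0009, exact permutation test, two-sided, p = 1). Across the 6 libraries the Pearson correlation of log2(CPM + 1) of Alas2 with log2 summed globin CPM was 0.94, rank 35 of 14394 genes with a mean of at least 1 CPM. Prdx2, an antioxidant enzyme abundant in red cells, ranked 106 and Blvrb, a red cell biliverdin reductase, ranked 134. Other red cell genes did not share this order: the correlation was −0.11 for Cat, which encodes catalase, −0.71 for Bpgm, −0.68 for Fech and −0.69 for the membrane skeleton gene Dmtn. The T cell marker Cd3d, at rank 85, stood above Prdx2 and Blvrb.

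Leaving out the 6 erythroid genes themselves, of which Hbb-bs is at rank 8 and is part of the sum, the 8 genes most like the summed globin level by this measure were Glrx3, Dbr1, Rer1, Tcea1, Dennd1a, Rfc4, Pold4 and Cfdp1, with correlations from 0.997 for Glrx3 to 0.975 for Cfdp1. Glrx3, a cytosolic glutaredoxin that handles iron-sulphur clusters, stood at 48.1, 43.6 and 50.4 CPM in WT and at 50.0, 42.2 and 72.2 CPM in KO libraries. All 8 were highest in KO library 3. The points share that library and number only 6, and 25 of the 14394 genes reached a correlation of 0.95. These values describe the libraries, and no p is attached to them.

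No tested gene of the wider erythroid and related lists passed the test. These lists include genes also made outside red cells, such as Aqp1, Epb41 and Cygb (below), so their counts do not describe red cells alone. The 9 lists of globin, red cell membrane, haem, iron and erythroid regulator genes held 73 gene symbols, of which 69 matched a row and 47 were tested. Ahsp, Ca1, Ca2 and Fam46c did not match by symbol, which does not show that the genes are absent from the counts. None rose or fell by edgeR's quasi-likelihood test (lowest adjusted p = 0.173), none passed by DESeq2 or limma-voom, and 4 had an unadjusted p under 0.05, as did 2221 of all 15191 genes tested. The median log2 difference was −0.04 and 22 of the 47 were positive. Without KO replicate 1 Cygb and Tent5c passed as higher in KO, at log2 differences of 0.84 and 0.64 (edgeR adjusted p of 0.0225 and 0.05). The lists were drawn up by function with earlier results of these data known.

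Genes that mark red cell precursors were at or near 0. Rhag, an ammonia channel of the red cell membrane, had 0 counts in all 6. Klf1, the transcription factor that activates adult beta globin, had 0, 3 and 0 counts in WT and 1, 0 and 8 counts in KO libraries. Gata1, the master regulator of red cell and platelet precursors, had 6, 15 and 0 counts in WT and 5, 16 and 0 counts in KO libraries. Of the 6 embryonic and other genes of the globin clusters, 5 had 0 counts in all libraries, and Hbq1b had 11 counts in WT library 1 and 2 in KO library 1. Of the genes that define the erythroid label, then, the adult globins and Alas2 were the ones measured above a few counts in every group. Ahsp, Ca1 and Ca2 were not analysed here.

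Membrane skeleton genes were also tested. Of the 17 red cell membrane genes 8 were tested and none passed by edgeR, with a median log2 difference of −0.29 and 7 of 8 negative. Sptb encodes a beta chain of the spectrin skeleton. It stood at 7.07, 6.86 and 9.31 CPM in WT and at 3.73, 6.55 and 4.63 CPM in KO libraries. The log2 difference was −0.64 ± 0.31 (edgeR adjusted p = 0.356). Its values did not overlap between the groups, as was so for 19.7% of all tested genes. Aqp1, a water channel of red cells and also of lung endothelium, supplied most of this list's level, at 1254 ± 220 and 1200 ± 171 CPM. Epb41, a skeleton protein also made outside red cells, stood at 181.8 ± 32.2 and 162.3 ± 22.6 CPM.

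All 8 haem synthesis genes were tested and none passed by edgeR, with a median of 0.04. Alas2 apart, these enzymes serve haem synthesis in every tissue. Fech, which inserts iron into the ring, stood at 47.5 ± 6.99 and 46.3 ± 6.66 CPM. Unlike Alas2, Fech was not high in KO library 3, at 38.6 CPM the lowest of the 6.

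No iron supply gene passed the test. Slc25a37, which encodes mitoferrin, the mitochondrial iron importer of red cell precursors, stood at 28.6 ± 4.40 and 38.0 ± 1.72 CPM (log2 difference 0.41 ± 0.15, edgeR adjusted p = 0.214). Steap3, a ferric reductase, stood at 65.8 ± 6.10 and 51.3 ± 2.02 CPM, and its log2 difference of −0.36 ± 0.12 had the lowest adjusted p of the 47 (0.173 by edgeR). Tfrc, the transferrin receptor gene, stood at 76.0 ± 6.72 and 69.6 ± 1.80 CPM. The medians were −0.04 over 6 mitochondrial transport genes and −0.03 over 4 iron uptake genes.

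Among regulators, Nfe2, a factor of red cell and platelet precursors also found in neutrophils, had the largest difference, at 4.93 ± 2.54 (WT) and 7.82 ± 2.27 CPM (KO) (log2 difference 0.66 ± 0.37, edgeR adjusted p = 0.444). Epor, the erythropoietin receptor gene, had a log2 difference of −0.06 ± 0.34 (edgeR adjusted p = 0.959). Of 9 maturation and red cell enzyme genes tested, none passed and the median was 0.11. Tent5c, a poly(A) polymerase gene, was highest in KO library 3, at 82.5 CPM against 33.2 to 56.9 CPM in the other 5. Bpgm, which makes the red cell's bisphosphoglycerate, was lowest there, at 20.4 CPM.

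Globins made outside the red cell were described next to these. Cygb, found in fibroblasts, stood at 23.2 ± 4.77 (WT) and 33.1 ± 14.8 CPM (KO) (edgeR adjusted p = 0.513). Mb, the muscle myoglobin gene, was at 0 in all WT libraries, had 2, 6 and 7 counts in KO and was not tested.

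Of 11 tested genes that bind or clear free haemoglobin, haem and iron, 1 rose and none fell, where 1.12% of all genes tested were called higher. Hp, which encodes haptoglobin, the plasma protein that captures free haemoglobin and is also made in inflamed lung, stood at 98.5, 90.6 and 120.5 CPM in WT and at 162.6, 243.4 and 205.2 CPM in KO libraries. The groups did not overlap, and the log2 fold change was 0.98 ± 0.15 (edgeR adjusted p = 0.00764). The call was lost without WT replicate 1, WT replicate 2 or KO replicate 2, with a highest edgeR adjusted p of 0.0667. Its level did not follow the globins: KO library 2 had the most Hp and the least globin. Cd163, the macrophage receptor for haptoglobin-haemoglobin complexes, stood at 3.87 ± 2.90 and 9.32 ± 5.94 CPM (edgeR adjusted p = 0.551). Hmox1, which breaks haem down, stood at 51.3 ± 17.1 and 71.1 ± 20.6 CPM (edgeR adjusted p = 0.453). Spic, a factor of haem-recycling macrophages, had 16, 0 and 17 counts in WT and 17, 72 and 49 counts in KO libraries. The list's median log2 difference was 0.47, with 9 of 11 positive.

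**Figure D3:**
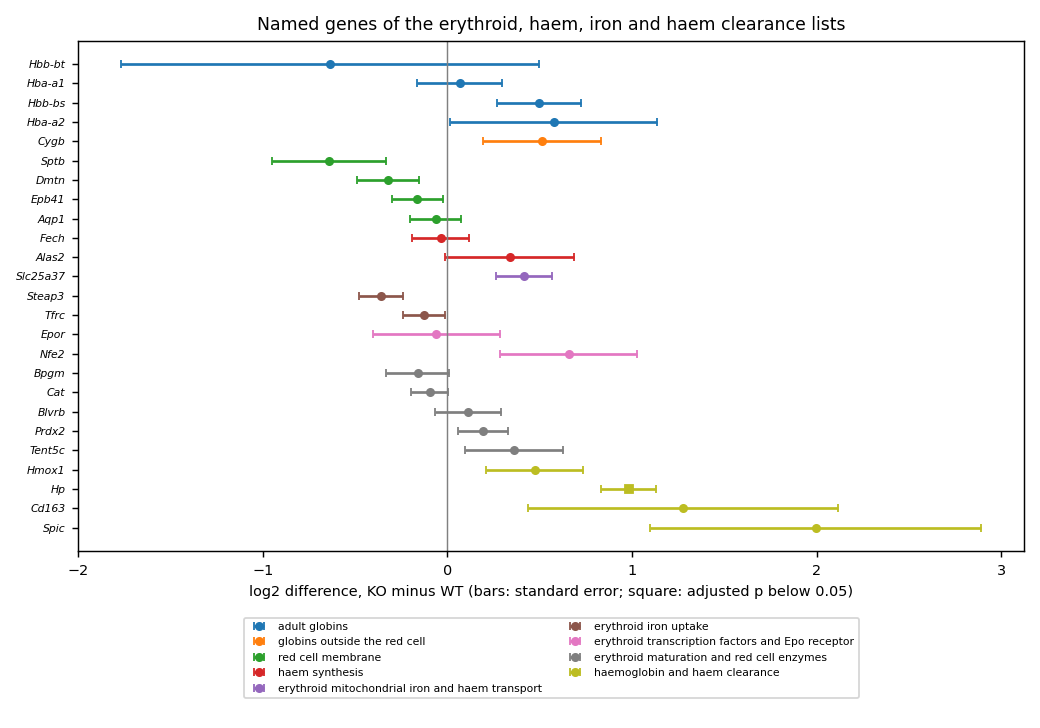
Log2 difference, KO minus WT, with its standard error (horizontal axis) for the tested genes named in the text from 8 erythroid, haem, iron and globin lists and from the haemoglobin and haem clearance list (1 row per gene, coloured by list; the ninth erythroid list had no tested gene). Hp, the 1 square, passed the edgeR test; the adult globins range from −0.64 for Hbb-bt to 0.58 for Hba-a2.

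Other blood cells were set beside the globins, since blood holds them too. In the summed level of 15 platelet marker genes the WT libraries stood at 193.7, 166.8 and 222.4 CPM and the KO libraries at 109.9, 98.8 and 105.5 CPM. The platelet sum was lower in every KO library than in every WT library, while the globin sum was not. Of 13 platelet genes tested, 2 fell (0.336% of all genes tested were called lower) and all 13 had negative log2 differences. Ppbp, a platelet chemokine gene, fell by 2.79 ± 0.29 and Nrgn, a calmodulin-binding protein of platelets, by 1.90 ± 0.28 on the log2 scale (edgeR adjusted p of 0.00157 and 0.00813). Nrgn lost its call without KO replicate 3, at an adjusted p of 0.0838 by edgeR. The platelet sum over the globin sum was 1.06, 1.06 and 1.20 in WT and 0.564, 0.652 and 0.327 in KO libraries.

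Of 10 neutrophil marker genes tested, S100a8, S100a9 and Lcn2 rose and none fell (1.12% of all genes tested were called higher). Mmp8, Ngp and Ltf, genes of neutrophil granule proteins, had negative log2 differences of −0.24, −0.82 and −0.57 that did not pass. Their sum over 12 genes was 212.7 to 335.9 CPM in WT and 375.2 to 579.7 CPM in KO libraries. Each of these 3 calls was lost when WT replicate 1 or 2 or KO replicate 2 or 3 was left out. None of 6 B cell or 8 T cell markers passed by edgeR (lowest adjusted p of 0.0572 and 0.0805), with medians of 0.57 and 0.46. The medians of the blood cell lists thus differed in sign, at −1.02 for platelet and 0.48 for neutrophil markers. The adult globins had a median of 0.28, with none passing. The lists were not tested against each other. Lung markers were present at high levels, and none of 6 endothelial and 7 epithelial markers passed by edgeR: Sftpc, the surfactant gene of alveolar type 2 cells, stood at 7837 ± 481 and 7775 ± 1061 CPM, and Pecam1 of endothelium at 1204 ± 97.4 and 1174 ± 139 CPM. KO library 3 was not the highest in either. The endothelial markers had a median log2 difference of −0.22 with 5 of 6 negative, and Emcn, the endomucin gene, was lower in every KO library than in every WT library (−0.42 ± 0.13, edgeR adjusted p = 0.142). The club cell gene Scgb1a1 was higher in every KO library than in every WT library (log2 difference 2.06 ± 0.50, edgeR adjusted p = 0.158). Such separation, in either direction, was found in 19.7% of all tested genes. The part of these differences in the globin values was not tested.

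**Figure D4:**
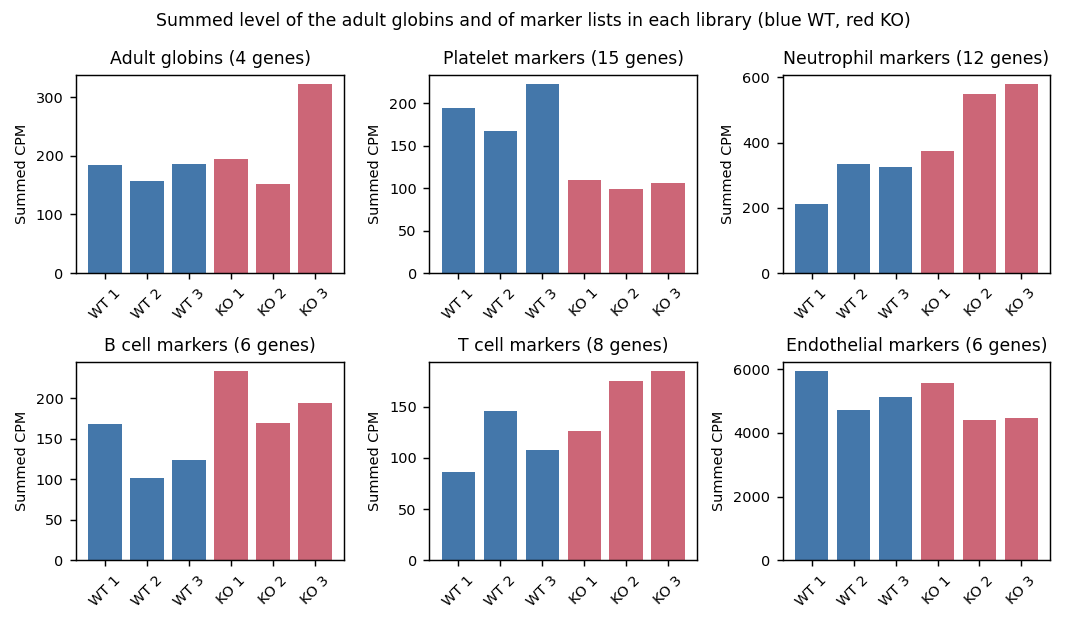
Summed CPM (vertical axes, from 0, each with its own scale) of the 4 adult globins and of platelet, neutrophil, B cell, T cell and endothelial marker lists in each library (blue WT, red KO), 1 bar per library. Platelet sums are 166.8 to 222.4 CPM in WT and 98.8 to 109.9 CPM in KO libraries, while the globin sums overlap and KO library 3 stands alone at 322.2 CPM.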

How the data were processed

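RNA of 6 whole lungs was measured, 3 per group, grouped by sample title. The files the authors deposited hold raw counts for Ensembl genes. Per the labels, the aligner was STAR 2.5, the counter HTSeq 0.6.1 and the build mm10. The sources used here do not state the annotation release, the strand setting or the handling of multiply aligned reads. Symbols, exonic lengths and coordinates came from GENCODE M21 (GRCm38) by exact identifier, which matched 34490 of 35275 rows, and 0 rows named no gene. Libraries held 14711459 to 16932114 counts, and 0 pairs of libraries were identical.

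KO was compared with WT by edgeR's quasi-likelihood F-test (version 4.0.16, R 4.3.3) with TMM scaling, filterByExpr (minimum count 10) and robust=TRUE, adjusted by Benjamini-Hochberg over 15191 genes at 0.05. CPM used TMM-scaled library sizes. A standard error is the size of the log2 difference over the square root of F. Single values per library were tested by exact permutation. Intervals are exact binomial (Clopper-Pearson). The labels do not say that each library came from a separate mouse, so the p-values reflect only how these samples vary, which may be technical. The procedure was first tested on simulated data.

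The genes and lists were chosen with earlier results of these data known. Named were the 6 genes, genes of the erythroid, haem and globin lists with a mean of 1 CPM or more, genes of other lists that passed or were among their 4 most abundant, and the 8 genes most like the globin sum. The others named (Rhag, Klf1, Gata1, Hbq1b, Mb, Spic, Cd163, Hmox1, Scgb1a1, Emcn, Cd3d, Mmp8, Ngp, Ltf, Myl7, Tnni3) were chosen after their values were seen. Some list genes are counted in their lists but not reported here. Alternatives were other scalings and filters, DESeq2 1.42.0, limma-voom 3.58.1, robust=FALSE, summed gene pairs, a replicate block and leaving out each library. Equal replicate numbers did not pair the samples.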

Additional observations from a re-analysis of the deposited data

How the results depend on the processing

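Of 81 alternative fits of the 5 tested genes, 74 kept the direction and side of the threshold. Hbb-bs passed in 1 of them, with no filter on low counts (log2 difference 0.49), where the cause was not tested. The sign of Hba-a1 turned without WT replicate 3 (−0.01), without KO replicate 3 (−0.31) and with the replicate block (−0.004), that of Alas2 without KO replicate 3 (−0.052), and that of Hbb-bt without WT replicate 3 (1.94) and by limma-voom (0.077), all without passing. With 1 library left out, the log2 differences ranged from 0.142 to 0.696 for Hbb-bs, from −1.189 to 1.94 for Hbb-bt, from −0.312 to 0.274 for Hba-a1, from 0.108 to 1.331 for Hba-a2 and from −0.052 to 0.567 for Alas2. The erythroid lists held 0 to 2 genes that rose with 1 library left out and 1 with no filter, and 0 that fell in any fit. Over all genes, 170 were higher and 51 lower. With 1 library left out 22 to 404 were higher and 2 to 174 lower. With no filter there were 578 and 225, by DESeq2 353 and 232, and with the replicate block 309 and 96. The block changed no other call of the 5 genes. Deviations of same-numbered WT and KO libraries correlated at 0.05, 0.02 and 0.03, so the numbers were not taken as pairs, and for the single values the block equals the unpaired difference by construction. The alpha to beta ratio kept its direction in the other 7 alternatives and, chosen after seeing the data, as Hba-a1 over Hbb-bs alone (−0.44). Low counts limit Hbb-bt and Slc4a1 most.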

Other observations

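Heart muscle genes, which can enter a lung sample with the pulmonary veins, differed among themselves in KO library 3. Myh6, Myl7, Tnnt2 and Tnni3, 4 of the 6, were highest there, at 14.0, 3.11, 6.21 and 1.83 CPM. Myh7, the most abundant, was lowest there at 38.9 CPM, and Actc1 was higher in WT library 2, at 26.7 CPM against 24.3 CPM. Their summed level was 88.3 CPM in KO library 3, against 69.2 to 102.3 CPM in the other 5 libraries. Their part in the globin values was not tested. Scgb1a1, the secretory protein gene of club cells, stood at 501.8 ± 260 (WT) and 2088 ± 924 CPM (KO), and its order across libraries, with KO library 2 the highest at 3110 CPM, differed from that of the globins.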
